A study of Canis lupus familiaris with 10 samples.

Results

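The genes described here are 5 laminin chains (LAMA3, LAMA4, LAMB2, LAMC1 and LAMC3), the type IV collagen chain COL4A5 and COL7A1, the collagen of anchoring fibrils. These 7 genes were taken from 19856 genes listed in the count tables, of which 13577 had at least 10 reads in at least 1 sample, and all 7 were among the latter. They were picked by name from the study's own table of genes that differed between Post-ACTH and Pre-ACTH (DESeq2, FDR under 0.01), so that their direction was given by the choice. Their changes are therefore given as a description, without a test. Visceral adipose tissue (VAT) was taken by laparotomy from 5 adult Beagle dogs (2 of them female, 3 male), first without any treatment (Pre-ACTH, week 0) and a second time in week 25 of tetracosactide (Post-ACTH). Tetracosactide is a synthetic analog of ACTH, which drives the adrenal cortex to release cortisol, and it was delivered by osmotic pumps under the skin of the neck that were changed every 4 weeks, at 1.3 to 1.95 μg/kg/day at first and 6 to 10 μg/kg/day at the end. No untreated dogs were sampled at week 25, so that the treatment cannot be told apart from the passing of time or from a previous laparotomy.

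The basement membrane is the thin sheet of matrix under endothelial and epithelial cells, and it also wraps single adipocytes, mural cells and Schwann cells. Laminins are trimers of an alpha, a beta and a gamma chain that assemble on the cell surface and bind integrins and dystroglycan. Type IV collagen forms the second network of the sheet, and nidogens, perlecan and agrin link the networks to each other and to the cell. LAMA4 is the main alpha chain of endothelium and of adipocytes, and LAMC1 is the gamma chain shared by most laminins. LAMB2 takes the place of LAMB1 in mature vessels, synapses and kidney. LAMA3 belongs to the laminin of epithelia, and LAMC3 to minor laminins of nerve and other tissues. COL4A5 is a chain of the type IV collagen of kidney and other specialised basement membranes, and COL7A1 forms the fibrils that fasten the basement membrane of skin to the dermis.

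Pre-ACTH libraries held 8728330 to 14867529 counted reads and Post-ACTH libraries 12314258 to 14589329. Dogs carry the numbers 1 to 5, given by ascending animal ID, and dogs 2 and 3 were the females. Dog 3 gave the library with the fewest reads, in Pre-ACTH. Values are normalized counts, that is, counts divided by the library size scaled with edgeR's TMM factors and multiplied by the mean library size. They serve to compare a gene between samples, not genes with each other, since they were not divided by transcript length. No reference sequence of the genome build used for the counts was at hand, so that positions are not given.

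Of the 7 genes, 6 were lower and 1, COL7A1, was higher in Post-ACTH than in Pre-ACTH. Each kept its direction in 5 of 5 dogs, which held for 26.9% of all tested genes in either direction. In 4 of the 7 genes the groups did not overlap, against 9.04% of all tested genes. The median log2 fold change of the 5 laminin chains was -0.71, and that of all tested genes was -0.0021. With the dog as a block, edgeR's quasi-likelihood test called 3 of the 7 genes at FDR under 0.01, LAMA3, LAMC3 and COL4A5, against 1.97% of all tested genes, and all 7 at FDR under 0.05, against 11.1%. DESeq2 called all 7, against 8.86% of the genes it tested. These counts repeat the choice of the genes and are no support for it. At FDR under 0.01, none of the 7 was called by edgeR when dog 2, 3, 4 or 5 was left out, 3 were called without dog 1, and without dog 2 only 1 gene was called in the whole table. Among the 7, COL7A1 (log2 fold change 0.96) and LAMC1 (-0.47) lay nearest to the threshold of the study's table when its test was rerun. Laminin chains outside that table carry no symbol here and were not analysed, so that no value just beyond the threshold can be given.

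**Figure D1:**
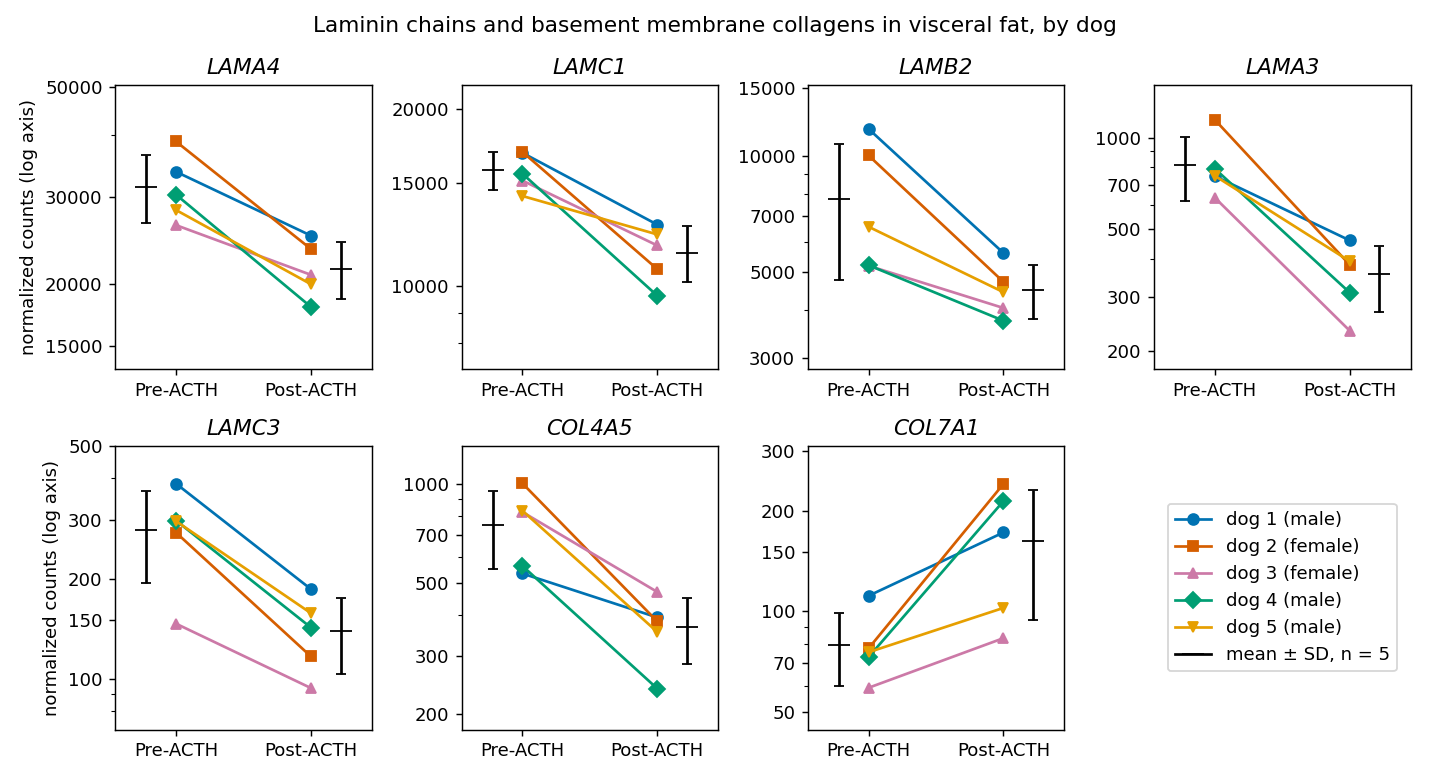
Normalized counts (log axis, each panel with its own range) of the 7 genes in Pre-ACTH and Post-ACTH samples, with a line for each of the 5 dogs and the mean ± SD of each group beside the lines. All lines go down except those of COL7A1, and for LAMB2, LAMC3 and COL7A1 the ranges of the groups overlap.

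LAMA4, the alpha chain of endothelial and adipocyte basement membranes, was lower after treatment in all dogs. In dogs 1 to 5 its Pre-ACTH values were 33683, 38761, 26289, 30288 and 28201 normalized counts, and its Post-ACTH values 25039, 23532, 20874, 17987 and 19985. The lowest Pre-ACTH sample, that of dog 3, was still above the highest Post-ACTH sample, that of dog 1. The mean went from 31440 ± 4924 to 21480 ± 2814 (SD, n = 5). The log2 fold change was -0.55 (SE 0.11), which left 68.5% of the Pre-ACTH level. In single dogs the log2 ratio lay between -0.75 in dog 4 and -0.33 in dog 3.

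LAMC1, the common gamma chain, showed the smallest change of the 7 genes and, within each group, the narrowest spread of levels between dogs. Its Pre-ACTH values were 16862, 16928, 15119, 15539 and 14230 normalized counts in dogs 1 to 5, followed by 12716, 10678, 11715, 9619 and 12235 in Post-ACTH. The groups did not overlap. The coefficient of variation was 7.37% in Pre-ACTH and 10.9% in Post-ACTH, and the log2 fold change of -0.47 (SE 0.11) left 72.2% of the Pre-ACTH level. Dogs 2 and 4 had the lowest log2 ratios of LAMC1 (-0.66 and -0.69), as they did for LAMA4 (-0.72 and -0.75).

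LAMB2, the beta chain of mature vessels and synapses, differed more between dogs before treatment than after it. Its Pre-ACTH values were 11777, 10051, 5201, 5218 and 6565 normalized counts in dogs 1 to 5. In Post-ACTH they were 5610, 4721, 4041, 3745 and 4442. Dogs 1 and 2 were high in Pre-ACTH and had the lowest ratios (-1.07 and -1.09), whereas dogs 3 to 5 had ratios from -0.56 to -0.36. The Post-ACTH sample of dog 1 was above the Pre-ACTH samples of dogs 3 and 4, so that the groups overlapped. The mean went from 7762 ± 2993 to 4512 ± 718.6 (SD, n = 5), and the coefficient of variation from 38.6% to 15.9%. The log2 fold change was -0.71 (SE 0.13).

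LAMA3, the alpha chain of epithelial laminins, had the lowest log2 fold change of the 7 genes. Its Pre-ACTH values were 748, 1144, 635, 791 and 749 normalized counts in dogs 1 to 5, and its Post-ACTH values 460.2, 383, 233, 310.4 and 393. All Post-ACTH samples lay below all Pre-ACTH samples. The mean went from 813 ± 193.5 to 356 ± 86.9 (SD, n = 5), which left 43.6% of the Pre-ACTH level (log2 fold change -1.20, SE 0.14). LAMA3 is known to be read from more than 1 promoter, and counts per gene cannot tell its isoforms apart.

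LAMC3, the gamma chain of minor laminins, was counted with 104 to 392 reads per library. Its Pre-ACTH values were 386, 275, 146.5, 299 and 298 normalized counts in dogs 1 to 5, followed by 186, 117, 93.8, 143 and 158. Dog 3 was the lowest in both samplings, and its Pre-ACTH value lay below the Post-ACTH values of dogs 1 and 5, so that the groups overlapped. Within each dog the Post-ACTH value was nevertheless the lower one. The log2 ratio was lowest in dog 2 (-1.22) and nearest to 0 in dog 3 (-0.63), and the log2 fold change was -0.99 (SE 0.11).

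COL4A5, a chain of the less common type IV collagen networks, had 534, 1004, 821, 563 and 829 normalized counts in Pre-ACTH and 392, 382, 469, 239 and 355 in Post-ACTH, in dogs 1 to 5. The groups did not overlap, with the lowest Pre-ACTH value in dog 1 and the highest Post-ACTH value in dog 3. The mean went from 750.3 ± 198.4 to 367 ± 83.6 (SD, n = 5), and the log2 fold change was -1.02 (SE 0.14). The log2 ratio was nearest to 0 in dog 1 (-0.44), followed by dog 3 (-0.81), and lay between -1.39 and -1.22 in dogs 2, 4 and 5.

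COL7A1, the anchoring-fibril collagen, was the only one of the 7 genes that was higher after treatment, and it had the fewest reads, 42 to 251 per library. Its Pre-ACTH values were 111, 77.5, 59.2, 73.0 and 75.5 normalized counts in dogs 1 to 5, and its Post-ACTH values were 172, 240.2, 83.2, 213 and 102. The Post-ACTH samples of dogs 3 and 5 lay below the Pre-ACTH sample of dog 1, so that the groups overlapped. The mean went from 79.3 ± 19.3 to 162 ± 68.2 (SD, n = 5). The log2 fold change was 0.96, and its SE of 0.22 was the widest of the 7 genes. Dogs 2 and 4 had log2 ratios of 1.61 and 1.52, and dogs 1, 3 and 5 ratios from 0.43 to 0.62.

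**Figure D2:**
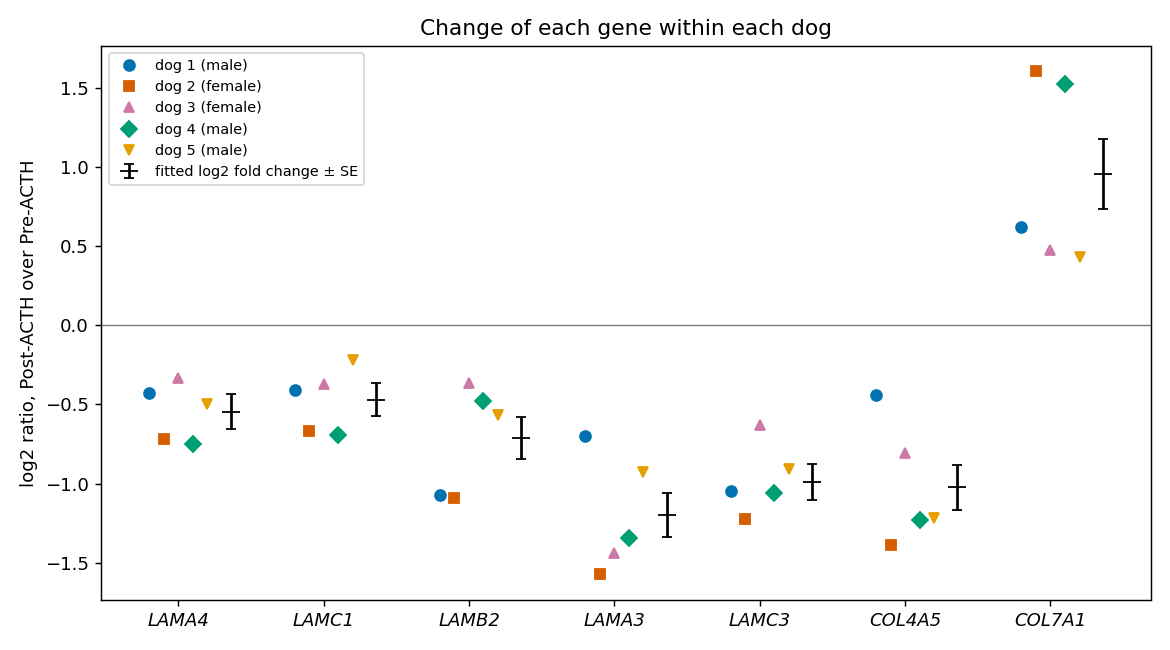
Log2 ratio of Post-ACTH over Pre-ACTH for each of the 7 genes in each dog (coloured symbols), with the fitted log2 fold change ± SE in black. All ratios of the 6 lower genes are below 0 and all 5 ratios of COL7A1 above 0. Dogs 2 and 4 are farthest from 0 for LAMA4, LAMC1 and COL7A1, and by a narrow margin also for LAMC3 and COL4A5.

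Ratios between genes of the same sample show whether the genes changed to the same extent, be it chains that can share a trimer or chains of the same kind, and a change in such a ratio depends neither on the scaling of the libraries nor on transcript length. LAMA4, LAMB2 and LAMC1 can share a trimer. The log2 ratio of LAMA4 to LAMC1 was 0.99 ± 0.14 in Pre-ACTH and 0.91 ± 0.16 in Post-ACTH (SD, n = 5), and its change within dogs ran from -0.28 in dog 5 to 0.04 in dog 3. The ratio of LAMB2 to LAMC1 changed by -0.24 ± 0.35 on the log2 scale, lower in dogs 1, 2 and 5 and higher in dogs 3 and 4. That of LAMB2 to LAMA4 changed by -0.17 ± 0.35 and was higher only in dog 4. In each of these 3 ratios the change did not have the same sign in all dogs. The other ratios are between chains of the same kind or between different proteins. For LAMC3 to LAMC1 the change was -0.50 ± 0.18, with values from -0.69 to -0.26, and it was below 0 in all 5 dogs. For LAMA3 to LAMA4 it was -0.65 ± 0.34, again below 0 in all 5 dogs, from -1.11 in dog 3 to -0.27 in dog 1. The ratio of COL4A5 to LAMC1 changed by -0.55 ± 0.36, below 0 in all 5 dogs but by only 0.03 in dog 1. The ratio of COL7A1 to LAMA3 was higher in Post-ACTH by 2.13 ± 0.86 on the log2 scale, from 1.32 in dog 1 to 3.18 in dog 2.

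**Figure D3:**
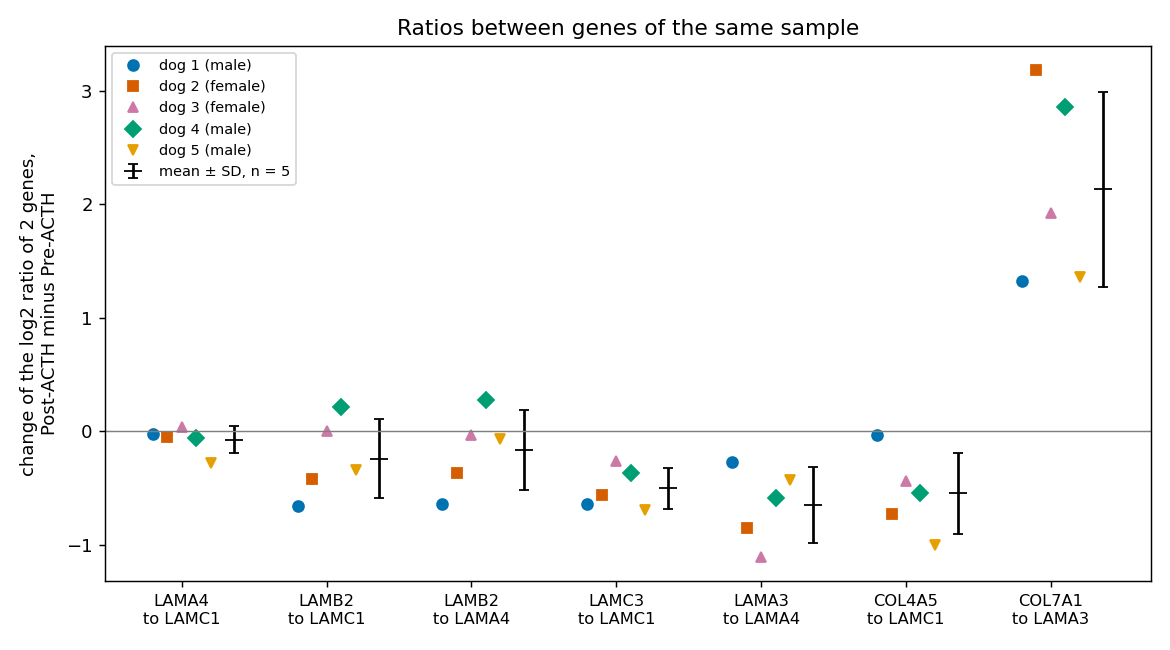
Change within each dog of the log2 ratio between 2 genes of the same sample (Post-ACTH minus Pre-ACTH), with the mean ± SD of the 5 dogs in black. The ratio of LAMA4 to LAMC1 stays between -0.28 and 0.04, while those of LAMC3 to LAMC1 and LAMA3 to LAMA4 are below 0 in all dogs.

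Whether the level of a gene followed the dog through both samplings was tested with edgeR's quasi-likelihood test of the dog terms. The study's test that gave the 7 genes used the same samples with the animal as a pairing factor. It favours genes with little spread left after the dog and the treatment, which also raises the statistic of the dog terms. The counts for the 7 genes are therefore not independent of the choice and are a description. None of the 7 genes passed FDR under 0.01, which 0.0368% of all tested genes did. At an unadjusted p under 0.05, 3 of the 7 differed between dogs, against 14.1% of all tested genes. LAMC3 had the lowest p (adjusted p = 0.136, edgeR), with log2 CPM averaged over both samplings from 3.20 in dog 3 to 4.38 in dog 1, a range of 1.18. LAMB2 followed (adjusted p = 0.229, edgeR), from 8.42 in dog 4 to 9.29 in dog 1, and was called by DESeq2's likelihood ratio test (adjusted p = 0.00411), which called 3.18% of all tested genes. COL4A5 was the third (adjusted p = 0.348, edgeR), with the lowest level in dog 4 (4.83) and the highest in dogs 2 and 3 (5.58 and 5.59). For LAMC1 the 5 dogs lay within 0.26 on the log2 scale (adjusted p = 0.838, edgeR).

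**Figure D4:**
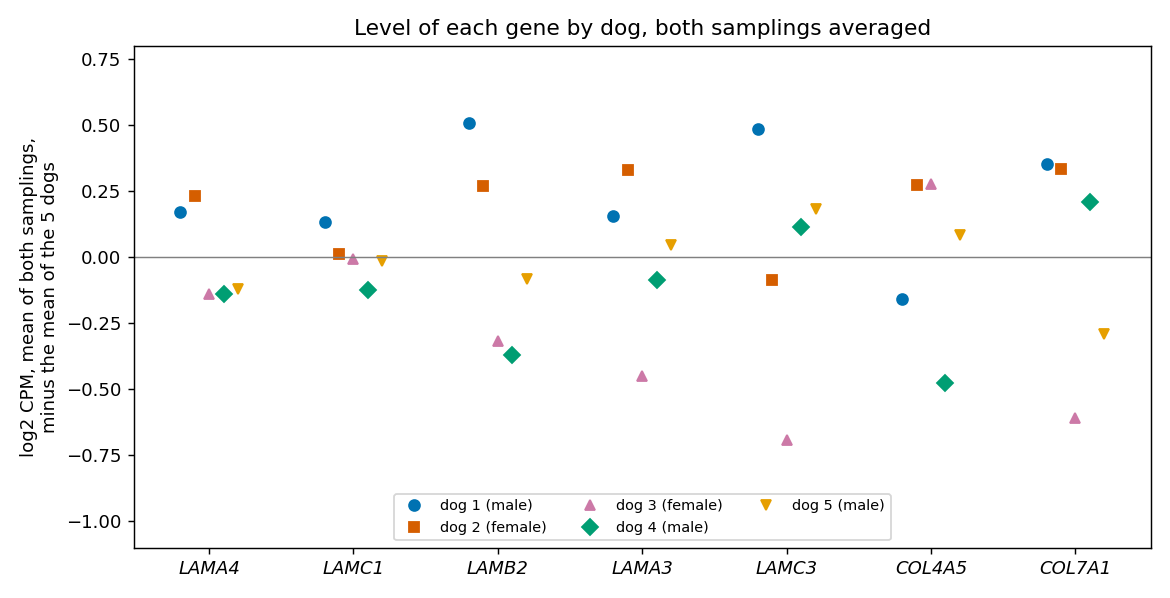
Log2 CPM of the 7 genes averaged over the Pre-ACTH and Post-ACTH sample of each dog, minus the mean of the 5 dogs. LAMC3 has the widest range between dogs, 1.18, with dog 3 lowest and dog 1 highest, and LAMC1 the narrowest, 0.26.

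The difference in response between the 2 females and the 3 males was tested as an interaction and did not pass the threshold for any of the 7 genes (adjusted p = 1 for each, edgeR quasi-likelihood test). No gene of the whole table was called at FDR under 0.01, 3.2% had an unadjusted p under 0.05, and DESeq2 called 5 genes, none of them among the 7. The largest difference was that of LAMA3, whose mean log2 ratio was -1.51 in females and -0.99 in males. Both females (-1.57 and -1.44) lay below all 3 males (-1.34, -0.93 and -0.70), and the 95% interval of the difference, female minus male, ran from -1.06 to 0.0087. For LAMA4, LAMB2, LAMC1 and LAMC3 the difference was between -0.08 and 0.06, with intervals that reached 0.477 or more on both sides of 0. For COL7A1 it was 0.23, with an interval from -0.92 to 1.38. With 2 females the intervals were wide, and differences within them were not excluded.

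Of 85 basement membrane genes listed by role, 28 had a symbol in the study's table, which include the 7 described above. The other 21 carry a symbol only because the study's own test of these samples had called them, so that their direction is no independent evidence, and the remaining genes of the list, such as LAMB1, COL4A1, NID1, HSPG2 and ITGB1, were not analysed here. Of the 21, 18 were lower and 3 higher in Post-ACTH. With edgeR, 4 of them fell at FDR under 0.01, against 1.22% of all tested genes, and none rose, against 0.751%. Nothing is read from this count, since the genes were available only through the study's test of the same contrast.

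All 4 belonged to the other structural components, of which 8 of a list of 22 were named, all with lower values. Their adjusted p-values are from the contrast through which the study had named them, so that they are a description and no independent support. HMCN2, a hemicentin of the matrix around cells, fell most, from 1080 ± 438 to 146 ± 90.7 normalized counts (log2 fold change -2.93, SE 0.41, adjusted p = 0.00791, edgeR). Its paralog HMCN1 fell by 1.39 on the log2 scale (SE 0.21, adjusted p = 0.00981, edgeR), but missed the threshold when 10 reads were required in 5 samples (adjusted p = 0.0101). AGRN, the heparan sulfate proteoglycan that binds laminin and dystroglycan, fell by 1.10 (SE 0.11, adjusted p = 0.00309, edgeR). PXDNL, a relative of the peroxidase that cross-links type IV collagen, fell by 1.15 (SE 0.14, adjusted p = 0.00522, edgeR), with 47.8 ± 18.7 normalized counts left in Post-ACTH. Each of these 4 missed the threshold when dog 2, 3 or 5 was left out, HMCN1, HMCN2 and PXDNL also without dog 4, and PXDNL also without dog 1 (adjusted p from 0.0124 to 0.0378, edgeR). The others, which did not pass it, were EGFLAM (log2 fold change -1.22), FBLN1 (-0.97), FREM2 (-0.67) and SPARC (-0.38).

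None of the 5 named receptors and linkers passed FDR under 0.01 with edgeR. At FDR under 0.05 edgeR called 4 of the 5, all but SGCA, against 11.1% of all tested genes. DESeq2 called the same 4 at FDR under 0.01, against 8.86% of the genes it tested. The 5 were named through the study's DESeq2 test of the same contrast, so that these counts repeat the choice. Integrin alpha-2, a collagen and laminin receptor encoded by ITGA2, had a log2 fold change of -2.28 (SE 0.39), and dystonin (DST), which ties integrins to keratin and actin, one of -0.67 (SE 0.11). Among the sarcoglycans of the dystroglycan complex, the log2 fold change was -2.31 (SE 0.65) for SGCA and -0.44 (SE 0.11) for SGCB. For syndecan-1 (SDC1) the log2 fold change was 1.88 (SE 0.47), with a higher value in 4 of 5 dogs. In Pre-ACTH, SGCA had 30.9 ± 39.0 and SDC1 18.2 ± 5.82 normalized counts, so that both values rest on few reads.

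Of the genes of assembly and turnover, 8 of 21 were named. With edgeR none passed FDR under 0.01. At FDR under 0.05 edgeR called 6 of the 8, against 11.1% of all tested genes. DESeq2 called all 8 at FDR under 0.01, against 8.86% of the genes it tested. The 8 were named through the study's DESeq2 test of the same contrast, so that these counts repeat the choice. The enzymes that modify collagen chains had log2 fold changes of -0.72 (P4HA2, SE 0.14), -0.52 (PLOD2, SE 0.09) and -1.19 (LOXL2, SE 0.19). For B4GAT1, which builds the laminin-binding sugar of dystroglycan, the value was -0.66 (SE 0.10). MMP2, a protease that cleaves type IV collagen, had -1.14 (SE 0.23). BMP1, a protease that trims procollagen VII and laminin chains, had 1.06 (SE 0.29), higher in 4 of 5 dogs. TIMP4, an inhibitor of matrix metalloproteases, had 0.84 (SE 0.25), also higher in 4 of 5 dogs, and the serine protease HTRA1 -0.56 (SE 0.09).

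**Figure D5:**
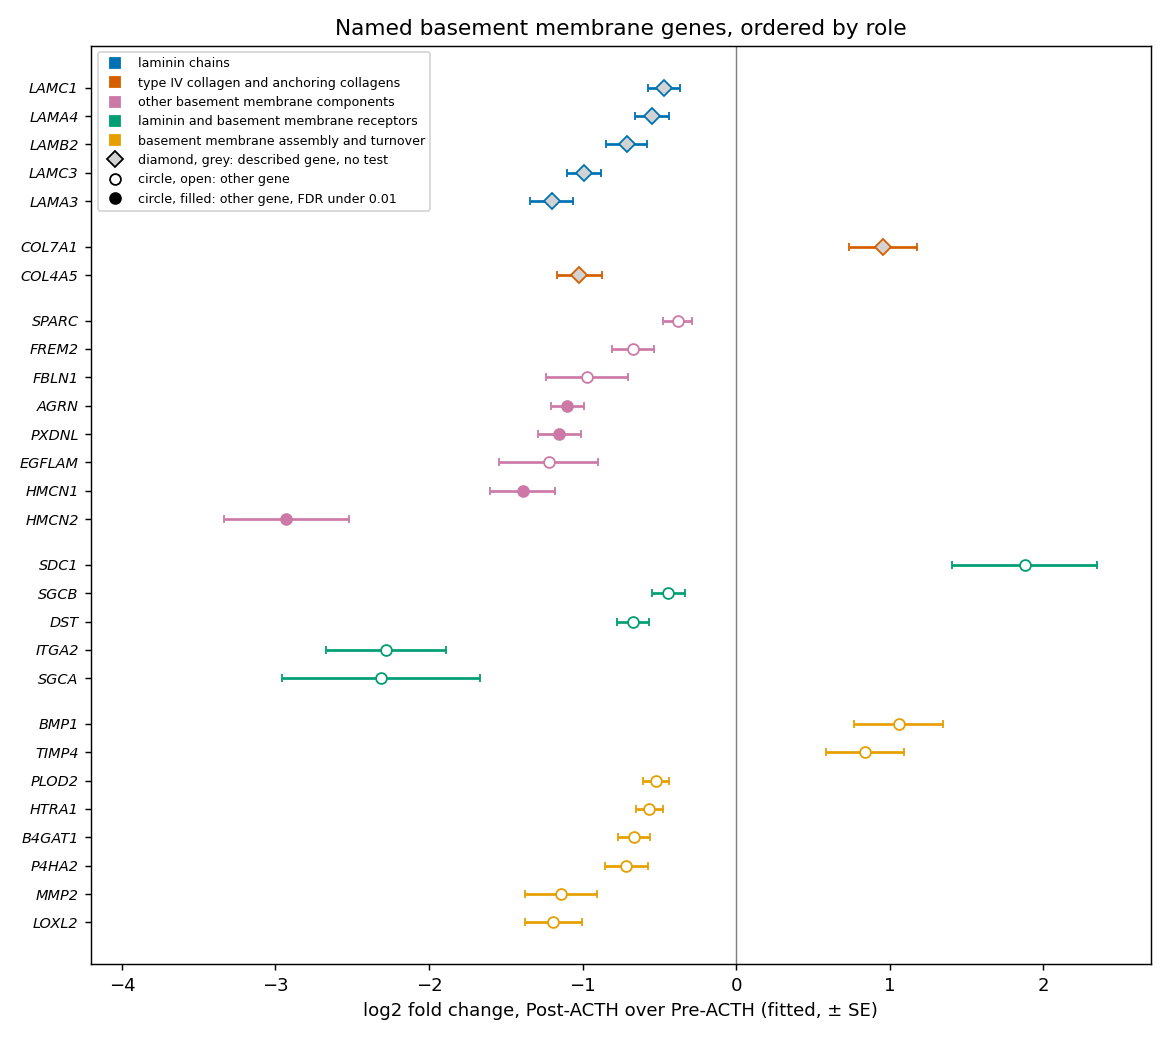
Fitted log2 fold change ± SE of the 28 named basement membrane genes, ordered by role, with the 7 described genes as grey diamonds without a test. The 4 filled circles (HMCN2, HMCN1, PXDNL and AGRN) are the other genes that passed FDR under 0.01, all below 0.

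Markers of the cells that can lay down basement membrane were compared in the same samples, with calls by edgeR at FDR under 0.01. Of all tested genes, 1.22% were called lower and 0.751% higher. The markers have a symbol only because the study had called them in the same contrast, so that their directions and calls are a description. VAT is a mixture, and fewer cells of a type cannot be told apart from less RNA per cell. Of 11 fibroblast and progenitor markers 8 were named, all 8 had lower values and 4 (COL3A1, FAP, LUM and PI16) were called. Their summed level was 15730 to 33580 normalized counts in Pre-ACTH and 5009 to 8924 in Post-ACTH. The 2 named endothelial markers of 13, CD93 and CLEC14A, had a summed level of 1783 to 2569 in Pre-ACTH and 531 to 1474 in Post-ACTH. The 4 named mural markers of 11 were not alike, with lower values of PDGFRB, which was called, and NOTCH3 and higher values of DES and MYH11, and their sum went from between 3085 and 3869 to between 2276 and 2896. EPCAM and CLDN4, 2 of 14 mesothelial and epithelial markers, had a summed level of 377 to 1014 in Pre-ACTH and 722.5 to 1425 in Post-ACTH.

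LIPE, the hormone-sensitive lipase of adipocytes and the only one of 10 adipocyte markers with a symbol here, had 19600 to 25070 normalized counts in Pre-ACTH and 27700 to 33580 in Post-ACTH. The labelled tissue could thus be checked against 1 marker only. The 5 named leukocyte markers of 10 had lower values in Post-ACTH (LCP1 was called), with a sum of 1533 to 3139 before and 670.2 to 1496 after, and MS4A2 was at 0 reads in 2 samples. MBP, the only named marker of 8 for Schwann cells and nerve, had 142 to 251 normalized counts before and 88.9 to 155 after. All of these markers were named through the study's table of changed genes, and their part in the values of the laminin and collagen genes was not tested.

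The change of the laminin chains was set beside that of interstitial collagens, which lie in the matrix between cells. In dogs 1 to 5 the median log2 ratio of the 5 laminin chains was -0.70, -1.09, -0.37, -0.75 and -0.56. That of COL1A1, COL1A2, COL3A1, COL6A1, COL6A3 and COL14A1 was -2.25, -2.14, -1.71, -1.07 and -1.59. In each of the 5 dogs the laminin median was nearer to 0. Single genes overlapped, with a log2 fold change of -1.04 for COL6A1 and -1.20 for LAMA3. The interstitial collagens were picked after their values were seen. Both sets come from the study's table of the same contrast, so that the difference was not tested.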

How the data were processed

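RNA-seq of VAT from 5 dogs at 2 samplings was analysed. Per the labels and the study's methods, the authors mapped reads to CanFam3.1 with STAR, used featureCounts to obtain counts per Ensembl gene and deposited these raw counts, 1 table per sample. Versions, annotation release, strand setting and the handling of reads shared between genes are not given in the sources used here. The labels name a stranded mRNA protocol and the paper ribosomal RNA depletion. Since the strand setting of the counts is not given, reads of overlapping genes on opposite strands may not have been told apart.

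The change from Pre-ACTH to Post-ACTH was fitted in edgeR 4.0.16 (R 4.3.3, TMM, glmQLFit and glmQLFTest) with a term for each dog. Tested were 13577 genes that reached 10 reads in 1 sample or more, with Benjamini-Hochberg adjustment over all of them and FDR under 0.01. SEs follow from the F statistics. The dog terms and the sex interaction were tested in the same way. Ratios of single dogs and between genes are on the log2 CPM scale (prior count 2). The pairing comes from the animal IDs, and deviations from the group means correlated across genes between samples of the same dog (mean r 0.274, from 0.0772 to 0.412). No 2 libraries were alike within sampling noise. The fits were tested on simulated counts.

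Alternatives were DESeq2 1.42.0, limma-voom (limma 3.58.1), no block, other scaling, filters and thresholds, and leaving out each dog. Symbols come from the study's table, which names 1079 of 1190 genes, and its fold changes and p-values were not used. Named were the 7 members, listed basement membrane genes called at FDR under 0.01, fixed chain partners and receptors with a symbol, and for each member the 2 genes with the most similar profile. Other listed genes given with values, markers, interstitial collagens and IMPDH2 were added after their values were seen. The 7 genes and the lists were chosen with earlier results of these data known. Of the genes listed at first, 1 is not reported here. A planned search of promoters was not run, since no sequences were used here.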

Additional observations from a re-analysis of the deposited data

How the results depend on the processing

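All 84 fold changes of the 7 genes under the alternatives kept their direction, and none moved by more than 1 SD between dogs. The calls depended more on the processing. Of all tested genes, 268 were called, 262 in edgeR without the replicate block, 1180 with DESeq2, 345 with limma-voom and 280 with total counts. Without a low-count filter 438 were called, and 1509 at FDR under 0.05. When a dog was left out, from 1 to 318 were called, fewest without dog 2 and 12 without dog 3. Of the 7 genes, 3 were called, 1 (LAMA3) without the replicate block, 7 with DESeq2, 7 at FDR under 0.05 and from 0 to 3 when a dog was left out. Of the other 21 listed genes, 4 were called, 5 without the replicate block, 20 with DESeq2, 9 with limma-voom, 7 with total counts, 9 without a low-count filter, 16 at FDR under 0.05 and from 0 to 8 when a dog was left out. PXDNL was not called without the replicate block (adjusted p = 0.0463, edgeR). Differences between dogs were called for 0 of the 7 genes and for 1 with DESeq2, and a sex difference in response for 0 under every alternative run. The blocked fit is the main one because each dog was sampled before and after treatment. The cause of these differences was not tested, also where a dog was left out and fewer samples remained. COL7A1, with the fewest reads of the 7 genes, had the widest SE.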

Other observations

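Among 1072 other genes with a symbol, those with the most similar profile over the 10 samples were SLC43A2 and ESM1 for LAMA4, TNIK and CDC42BPA for LAMC1, DMPK and ADGRG4 for LAMB2, TMEM119 and GUCY1A2 for LAMA3, ATP9A and GOLM1 for LAMC3, CA13 and APOA1 for COL4A5, and PACSIN3 and ABCC8 for COL7A1. The likeness was measured as the correlation of log2 CPM, which was between 0.927 for ABCC8 and 0.983 for SLC43A2. The points share libraries and dogs, all genes compared were called by the study between the same groups, and the values are a description. In deviations from the group means the same measure was 0.949 for SLC43A2 and between 0.838 and 0.928 for the other 13 genes. ESM1, a proteoglycan of endothelial tip cells, had a log2 fold change of -1.93 and ABCC8, the sulfonylurea receptor, one of 2.97.

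LAMB2 and COL7A1, the one lower and the other higher in Post-ACTH, lie on the same chromosome in the RefSeq annotation of the dog assembly UU_Cfam_GSD_1.0, with 16 protein-coding genes between them. This assembly differs from that of the counts and was used for the order of genes only. IMPDH2, an enzyme of guanine nucleotide synthesis, was the only one of the 16 with a symbol in the study's table. That table holds only genes called between the same groups, so that a change of IMPDH2 (log2 fold change 0.80) was given by the choice. The other genes between LAMB2 and COL7A1 carry no symbol here and were not examined.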
